A study of Homo sapiens and Mus musculus with 20 samples.

Results

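The cAMP response element (CRE) regions were stretches of open chromatin in the human colorectal adenocarcinoma line SW480 with the complete palindromic element TGACGTCA close to the point of highest signal. They were found by merging the peak intervals of 12 ATAC-seq libraries, keeping merged regions with a peak in 2 or more libraries, and keeping those in which all 8 bases of the element, with no mismatch, lay within 100 bp of the highest summit, the point with the largest fold enrichment over the local background in any library. Of 252173 merged regions, 167303 had a peak in 2 or more libraries, and 650 of these carried the element. By distance of the highest summit from the nearest start of a protein-coding transcript, 318 of the 650 lay within 1 kb (promoter CREs), 296 over 3 kb (distal CREs) and 36 between these limits. The rule used sequence, position and the presence and height of peaks in any library, treated or untreated, and not the difference between treated and untreated cells, so that some regions are members through treated or untreated libraries alone. At 14 of the 650 the element was not wholly inside the merged interval, 10 of them distal.

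ATAC-seq maps open chromatin with Tn5 transposase, which inserts sequencing adapters into accessible DNA. SW480 cells, an established epithelial line of the large intestine, were treated for 12 to 16 h with sodium propionate (NaPr) at 10 mM or with sodium butyrate (NaBu) at 1 mM, and the Omni-ATAC protocol was run on 50000 viable cells. Each compound had its own untreated cells (0 mM) and there were 3 libraries in each of the 4 groups. The NaPr and NaBu experiments carried different dates, so compound, dose and date cannot be told apart between them. The labels did not say that replicates came from separate cultures, and p-values then measure the spread between these libraries, which may be technical.

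The CRE is the binding sequence of the CREB and ATF family of basic leucine zipper factors. Cyclic AMP made by adenylyl cyclases activates protein kinase A, which phosphorylates CREB1, and phosphorylated CREB1 recruits the coactivators CREBBP and EP300, while CRTC proteins join it once their phosphorylation by salt-inducible kinases is relieved. Dimers that include JUN or FOS proteins can bind this element too, and the AP-1 site of those proteins is shorter by a base at its centre. CREs of active genes are typically found in CpG-rich promoters near the transcription start.

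The sequences of 12 sites are shown because the comparisons turn on them. Each holds the element in capitals with 11 bases on either side, read 5′ to 3′ on the strand of the gene with the nearest protein-coding start, by which each region is named. The first set gained (AGTR2, NFE2L3 and EPN2) or lost (KCNF1, NAT14 and AMOTL2) rank after both compounds.
AGTR2: tccttaactctTGACGTCAatagtagatga
NFE2L3: cattctccctcTGACGTCAtccttctcata
EPN2: agatgggggtaTGACGTCAcctgacaggca
KCNF1: tgaaaagctccTGACGTCAggctggaattc
NAT14: cgcgcgcggtcTGACGTCActtccgcccgc
AMOTL2: gtccagcccggTGACGTCAgcgttagagta
In GRCh38 these sites lay at chrX:116272540-116272569, chr7:26166820-26166849, chr17:19303591-19303620, chr2:10911904-10911933 and chr19:55485170-55485199 on the plus strand and at chr3:134373809-134373838 on the minus strand. The second set lay at promoters of genes from lists of the CREB and ATF family with its AP-1 relatives (JUND) or of known CREB targets, in regions that fell in rank after NaBu.
JUND: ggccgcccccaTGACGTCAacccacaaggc
DUSP1: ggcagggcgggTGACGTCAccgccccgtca
PCK1: gacctgcccccTGACGTCAgtggcgagcct
SIK1: gcgggcgccccTGACGTCAccggcccgcgg
These lay at chr19:18281804-18281833, chr5:172771302-172771331 and chr21:43427378-43427407 on the minus strand and at chr20:57561008-57561037 on the plus strand. The last set showed the largest opposite differences between the compounds among distal CREs.
ATP2B1: accctgaagccTGACGTCAttagatggcag
BCOR: tggcaatctgaTGACGTCAcctcctttcct
These lay at chr12:89951385-89951414 and chrX:39753569-39753598, both shown on the minus strand. The nearest gene of a distal region gives its position only.

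The peak lists were of similar length, with 299022 to 299463 summits in each of the 12 libraries. The weakest listed peak ranged from a −log10 p of 3.37 to 9.38, and the mean background pileup, a measure of depth, ranged from 0.936 to 3.03 over the 12 libraries. Distinct intervals numbered 126008 to 128955 in the NaBu libraries and 108442 to 120971 in their untreated libraries, without overlap between the groups. Of 12 markers of colon epithelium, 9 had a peak within 1 kb of a start in all 12 libraries, among them EPCAM, CDX2 and VIL1, whereas CDX1 and GPA33 had none. Peaks at marker promoters of other cell types were also present (CD14, COL1A1, COL1A2 and PDGFRB in all 12 libraries), and PTPRC, CD3E and CDH5 had none. An open promoter does not show that the gene was transcribed.

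The element was concentrated at promoters. It was present in 1.17% of all regions within 1 kb of a start, in 0.251% of those at 1 to 3 kb and in 0.235% of those over 3 kb. A total of 640 regions held 1 copy and 10 held 2. Its centre lay within the 100 bp upstream of the start in 222 of the 318 promoter CREs (69.8%), with 131 in the nearer 50 bp and 91 in the farther 50 bp, and downstream of the start in 39. Annotation was read at the highest summit and not at the element. At promoter CREs the summit lay in untranslated exons in 130 cases, between genes in 81, in introns in 71 and in coding exons in 11. In the other 25 it lay in an exon of a transcript without coding sequence there. Summits of distal CREs were mainly intronic (141) or intergenic (124).

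The site was seldom at the summit itself. The distance from the centre of the element to the highest summit had a median of 53.5 bp at promoters and 50.5 bp at distal regions, and it was under 20 bp in 25 promoter CREs (7.86%) and 47 distal CREs (15.9%). AP-1 sites (TGACTCA, or TGAGTCA on the other strand, neither of which fits inside the full CRE) were counted over the same window, with 28.3% of 21726 distal AP-1 regions having the site under 20 bp from the summit. When each library's own strongest summit was used in place of the shared one, the median distance stayed between 51.5 and 61.5 bp at promoters and between 46.5 and 55.5 bp at distal CREs over the 12 libraries.

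**Figure D1:**
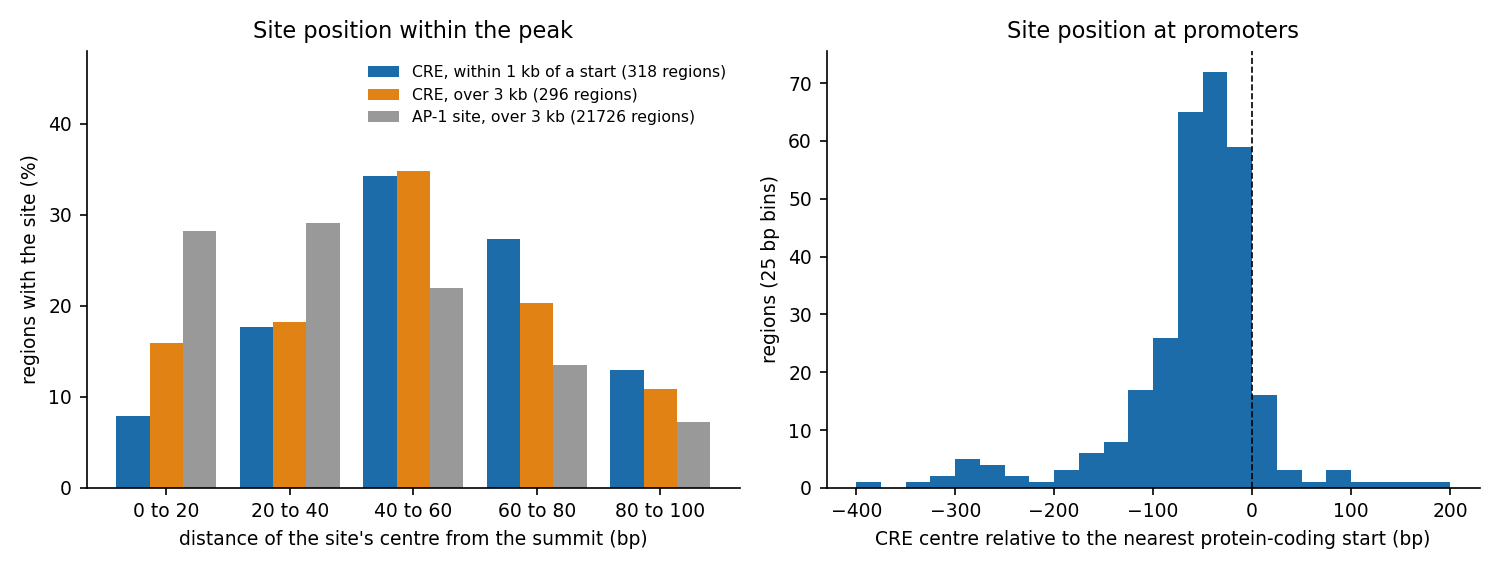
Position of the element. Left, share of regions (%) by distance in bp between the centre of the site and the highest summit, for promoter CREs, distal CREs and distal AP-1 sites; the 40 to 60 bp class was the most frequent for CREs (34.3% and 34.8%). Right, number of promoter CREs per 25 bp by position of the element relative to the nearest protein-coding start, with the dashed line at the start and the few farthest sites left out; most lay just upstream of the start.

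CRE regions had peaks in more libraries and a higher GC content than all regions of the same distance class, given here as a description. Peaks were present in all 12 libraries at 277 of 318 promoter CREs (87.1%, against 57.0% of all regions within 1 kb) and at 124 of 296 distal CREs (41.9%, against 24.9%). In each library, 93.1% to 96.5% of promoter CREs and 58.8% to 75.0% of distal CREs had a peak. The median fold enrichment of the promoter CREs with a peak was 11.9 to 15.0 per library, against 9.27 to 11.2 for all regions of that class. The summit with 100 bp on either side had a median GC content of 66.4% at promoter CREs and 53.2% at distal CREs, against 61.2% and 50.2%.

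Other elements were counted in the same window. The SP1 motif (GGGCGG, either strand) was present at 194 promoter CREs (61.0%, against 40.3% of all regions within 1 kb) and 48 distal CREs (16.2%, against 8.52%). An AP-1 site was present at 9 promoter CREs (2.83%, against 7.33%) and 39 distal CREs (13.2%, against 17.3%). GTGACGTCAC accounted for 77 promoter CREs (24.2%) and 41 distal ones (13.9%), whereas ATGACGTCAT accounted for 4 promoter CREs (1.26%) and 25 distal ones (8.45%). A match describes letters in a window and does not show that a factor was bound.

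Treated and untreated libraries were compared on percentile ranks. In each library, regions were ranked by their highest −log10 p, so that 100 is the strongest region of that library and a region without a listed peak has 0, and the difference of the mean ranks, treated minus untreated, is given in rank points. The test was limma with Benjamini-Hochberg adjustment over all regions with a peak in 2 or more of the 6 libraries of an experiment, and a region was called at an adjusted p below 0.05. These ranks show order within a library and not the amount of open chromatin. A region with a peak in fewer than 2 libraries of its lower group passed the filter only through the group where it was high, so that the filter fixed its direction, and such regions are described below by their ranks with no test. Of the members called they were 2 of 17 higher and 2 of 25 lower after NaPr, and 18 of 75 higher and 17 of 107 lower after NaBu. Of all regions called they were 2126 of 5632 higher and 1295 of 4923 lower after NaPr. After NaBu they were 10026 of 24370 higher and 6836 of 21312 lower.

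After NaPr few CRE regions were called. Of the 650 regions, 554 were tested, 17 were called higher and 25 lower, while over all 124067 regions tested 4.54% were called higher and 3.97% lower. At promoter CREs 3 of 308 were called higher and 21 lower, beside 2.19% and 8.14% of all regions within 1 kb, and the median change was −0.77 rank points against −1.21 for all. At distal CREs 12 of 217 were called higher and 1 lower, beside 5.02% and 2.87% of all regions over 3 kb, and the median change was 0.70 against 0.91. Between 1 and 3 kb 2 of 29 were called higher and 3 lower, beside 5.39% and 4.72%. As shares of the members tested these are 0.974% and 6.82% at promoters and 5.53% and 0.461% at distal regions, and their difference from the background was not tested. Without any 1 of the 3 NaPr libraries, limma called none of the members, with 36 to 48 higher and 75 to 89 lower at an unadjusted p below 0.05, and without any 1 untreated library it called 1 to 8 higher and 0 to 6 lower. With ranks taken within bins of GC content, promoter CREs called lower dropped from 21 to 2 of 308, and the share of all regions within 1 kb from 8.14% to 2.83%. Distal calls were then 8 higher and 6 lower of 217, beside 4.04% and 2.95% of all regions over 3 kb.

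The largest NaPr losses at promoters included AMOTL2, RAPSN and NAT14. AMOTL2, an angiomotin family adaptor of cell junctions, had ranks of 68.1, 49.2 and 61.5 in the untreated libraries and 0, 34.9 and 0 after NaPr. The region kept a peak in 1 of the 3 NaPr libraries, so it passed the filter only through its untreated libraries. RAPSN (rapsyn, which clusters acetylcholine receptors) lay at 36.5, 46.8 and 31.5 untreated and at 0 in every NaPr library, and it had no peak in any library of the NaBu experiment.

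The 3 promoter CREs called higher were OTOF, ATL2, which encodes a GTPase that shapes the endoplasmic reticulum, and VASP, an actin regulator. ATL2 ranked 93.8, 93.0 and 93.8 untreated and 96.0, 97.1 and 96.6 after NaPr (3.06 ± 0.673, SE, limma adjusted p = 0.0271). VASP ranked 92.3, 93.3 and 92.6 untreated and 95.6, 94.8 and 96.1 after NaPr (2.78 ± 0.720, SE, limma adjusted p = 0.0442), but its number of tags relative to the median region changed by −0.029 on the log2 scale and was not called.

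Among distal CREs the largest NaPr gains were near BCOR, EPN2, NFE2L3 and CPEB4. The BCOR region (chrX:39753216-39753578, intergenic, 302703 bp from the start) had no listed peak in the 3 untreated libraries and ranked 65.5, 54.9 and 55.5 after NaPr. It had no peak in any library of the NaBu experiment, and its element begins just past the end of the called interval. CPEB4, which encodes an RNA-binding regulator of translation, ranked 60.4, 57.6 and 69.7 untreated and 80.4, 82.9 and 76.9 after NaPr (17.5 ± 3.70, SE, limma adjusted p = 0.0238), and its window also held an AP-1 site. The only distal CRE called lower, in an intron 108981 bp from the KCNRG start, had ranks of 98.2, 97.1 and 96.8 untreated and 94.2, 91.6 and 91.9 after NaPr (fell by 4.80 ± 0.856, SE, limma adjusted p = 0.014). An AP-1 site was present in 4 of the 12 distal CREs called higher (33.3%) and in 27 of the 204 not called (13.2%), while after NaBu it was present in 9 of 55 called higher (16.4%), 5 of 31 called lower (16.1%) and 19 of 152 not called. Among all regions over 3 kb called higher, 1409 of 4606 after NaPr held an AP-1 site and no full CRE. After NaBu these were 4611 of 19884, and no difference between these shares was tested.

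More CRE regions were called after NaBu, as were more of all regions. Counts of calls do not compare the size of the responses. In simulated lists, shifts of 0.25 in log10 of the −log10 p were recovered at 0.149% of changed regions for NaPr and 17.5% for NaBu. Shifts of 0.5 were recovered at 2.03% and 53.8%. The simulation gave all regions of an experiment the same spread. It called 410 and 13771 regions, fewer than the data, so its shares do not carry over to the data. Of 580 CRE regions tested after NaBu, 75 were called higher and 107 lower, while over all 123730 regions tested 19.7% were called higher and 17.2% lower. At promoter CREs 14 of 310 were called higher and 65 lower (4.52% and 21%, beside 9.81% and 26.7% of all regions within 1 kb), with a median change of −0.94 rank points against −1.85 for all. At distal CREs 55 of 238 were called higher and 31 lower (23.1% and 13%, beside 22.3% and 14.5% of all regions over 3 kb), with a median of 0.42 against 2.75. Between 1 and 3 kb 6 of 32 were called higher and 11 lower, beside 19.7% and 19.2%. Both promoter shares lay below those of the class and both distal shares were near theirs, and whether they differ was not tested. In bulk cells, a region open in fewer cells and one less open per cell cannot be told apart.

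The balance of calls at promoters changed with the ranked measure. When regions were ranked by fold enrichment in place of −log10 p, 37 promoter CREs were called higher and 26 lower, against 9.39% and 16.5% of all regions of the class, and with ranks within bins of GC content the counts were 23 and 35. Promoter CREs called lower had a median GC content of 70.6% and those called higher 61.4%. Without untreated replicate 1 or 2 of the NaBu experiment, 39 and 42 promoter CREs were called lower. Distal calls were 30 higher and 30 lower with fold enrichment, and 42 higher and 49 lower with tags over background in the 169 distal CREs with a peak in all 6 libraries. Counts given here without a share of all regions do not show a response particular to CREs.

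**Figure D2:**
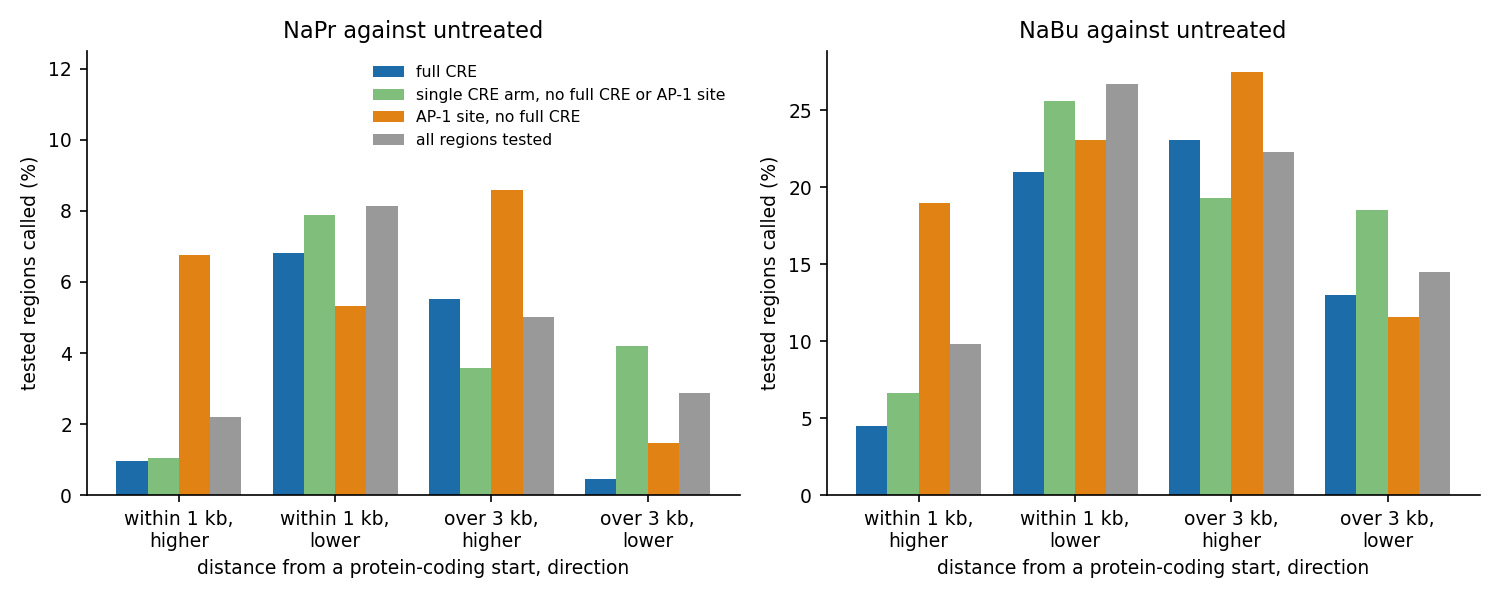
Share of tested regions called higher or lower (%, limma adjusted p below 0.05) after NaPr (left) and NaBu (right), by distance from a protein-coding start, for regions with a full CRE, with a single arm of the element, with an AP-1 site and for all regions tested. At promoters full CREs were called higher in 0.974% and 4.52% of cases, and AP-1 regions in 6.75% and 19%.

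Regions with an AP-1 site and no full CRE were set beside the CRE regions. Within 1 kb of a start, AP-1 regions were called higher in 6.75% of 1616 after NaPr and in 19% of 1659 after NaBu, and lower in 5.32% and 23.1%. Over 3 kb the shares were 8.59% of 16410 and 27.5% of 16770, with median changes of 5.27 and 5.00 rank points. Regions with only 1 arm of the palindrome (TGACG on either strand, with no full CRE and no AP-1 site) were called higher at promoters in 1.06% and 6.66% and lower in 7.88% and 25.6%. The shares called higher were closer to those of the full CREs for single arms than for AP-1 regions, whereas the share called lower after NaBu was closer for AP-1 regions. The differences between these sets were not tested.

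The largest NaBu losses at promoters were at TUBB2A, PTPA, AFF4 and PTPRU. TUBB2A, a beta-tubulin gene, ranked 75.5, 77.8 and 58.2 untreated and 54.7, 0 and 0 after NaBu. PTPA, an activator of protein phosphatase 2A, ranked 46.7, 49.1 and 57.0 untreated, and its CRE region (chr9:129141475-129141684) had no peak in the 3 NaBu libraries. AFF4, a scaffold of the super elongation complex, ranked 35.6, 45.0 and 49.6 untreated and 0 in each NaBu library. The PTPA and AFF4 regions had no peak in the NaPr experiment. TUBB2A, PTPA, AFF4 and PTPRU passed the filter only through their untreated libraries. PTPRU, a receptor tyrosine phosphatase, ranked 64.1, 60.9 and 29.95 untreated and 25.6, 0 and 0 after NaBu.

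The largest NaBu gains at promoters were at CDH26, OTOF, ODF3L1 and ADGRD1. CDH26, a cadherin, ranked 44.8, 0 and 24.9 untreated and 65.0, 62.2 and 63.9 after NaBu (40.5 ± 10.3, SE, limma adjusted p = 0.0182). OTOF, which encodes otoferlin, was gained after both compounds. It ranked 0, 27.3 and 27.2 untreated and 45.8, 52.7 and 61.5 after NaBu (35.2 ± 8.70, SE, limma adjusted p = 0.0161), and 64.6, 67.0 and 61.2 untreated and 75.0, 75.8 and 81.3 after NaPr (13.1 ± 3.16, SE, limma adjusted p = 0.0361). ODF3L1 rose from 47.7, 41.8 and 57.5 to 66.9, 74.3 and 76.1 (limma adjusted p = 0.00859) and ADGRD1, an adhesion receptor, from 48.6, 49.0 and 51.4 to 70.4, 64.8 and 68.4 (limma adjusted p = 0.00603). The 50 bases around the ADGRD1 site have 2 exact copies in the genome, so its reads may be shared with another locus.

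The largest NaBu gains at distal CREs were near ATP2B1, RBBP7, SRGAP2 and PSMG1. A peak in all 3 NaBu libraries and in none of their untreated libraries was seen at 13 of 238 distal CREs and the reverse at 1 (5.46% and 0.42%, beside 7.44% and 3.29% of all regions over 3 kb). After NaPr these numbers were 4 and 1 of 217 (1.84% and 0.461%, beside 3.32% and 1.45%). Promoter CREs showed the reverse pattern alone, at 4 of 310 after NaBu (1.29%, beside 4.46%) and 2 of 308 after NaPr (0.649%, beside 1.44%). The ATP2B1 region (chr12:89951191-89951896, an intron 242096 bp from the start of this calcium pump gene) had no listed peak untreated and ranked 57.8, 65.5 and 71.5 after NaBu, and it had no peak in the NaPr experiment. Its fold enrichments were 10.5, 13.3 and 15.4, and its window held an AP-1 site as well. The RBBP7 region (chrX:16889179-16889820), named for a histone-binding protein, ranked 31.7, 0 and 0 untreated and 71.1, 73.0 and 69.5 after NaBu. In the NaPr experiment it had a peak in every library, with overlapping groups (59.98, 60.4 and 65.4 against 48.2, 78.6 and 66.0).

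The regions near SRGAP2 and near PSMG1, a proteasome assembly chaperone gene, had no listed peak in the untreated libraries of the NaBu experiment. SRGAP2 ranked 65.8, 57.6 and 48.4 after NaBu but 0, 49.3 and 55.7 in the untreated libraries of the NaPr experiment, and its 50 bases around the site have 2 exact copies in the genome. PSMG1 ranked 53.2, 44.9 and 47.5 after NaBu, with a peak in 1 untreated library of the NaPr experiment (39.3). Of the largest distal losses, an intronic CRE near SPTB, the gene of beta-spectrin, ranked 67.0, 62.5 and 63.0 untreated and 19.3, 0 and 0 after NaBu. The CREs near IPO5 (50.9, 28.4 and 49.2 to 0, 17.5 and 0) and MEDAG (35.2, 49.6 and 46.5 to 20.5, 0 and 0) also ranked lower. The SPTB, IPO5 and MEDAG regions passed the filter only through their untreated libraries.

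A total of 22 CRE regions were called after both compounds, and all 22 moved in the same direction, 12 higher and 10 lower. They include NFE2L3 after NaBu and EPN2 and AMOTL2 after NaPr, where the filter was passed only through the higher group. The filter fixed the direction of those calls, so they are not tested agreement. The experiments had separate untreated libraries. Of 83651 regions tested in both, 6.72% were called in both and 6.54% in the same direction, so that 97.4% of the regions called in both moved alike. Of the members tested in both, the 22 were 55.0% of the 40 called after NaPr and 14.8% of the 149 called after NaBu, beside 63.4% and 18% over all regions. At promoters 2 were higher and 7 lower, and at distal regions 9 were higher and 1 lower. Under other settings the number called alike ranged from 0 to 126.

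AGTR2, NFE2L3 and EPN2 were the CREs with the largest shared gains by the smaller of their 2 changes. The region near AGTR2, the type 2 angiotensin receptor gene (chrX:116272156-116273045, 100648 bp from its start), ranked 69.2, 74.4 and 72.8 untreated and 86.4, 85.6 and 88.2 after NaPr (14.6 ± 1.98, SE, limma adjusted p = 0.00651). In the NaBu experiment it ranked 27.8, 37.5 and 24.9 untreated and 59.9, 61.0 and 64.4 treated (31.7 ± 5.10, SE, limma adjusted p = 0.0031), and its fold enrichment was 8.78 to 13.2 and 17.7 to 25.6 in the untreated and treated NaPr libraries. Neither experiment had overlapping groups.

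NFE2L3 encodes a basic leucine zipper factor, and its CRE lay in an intron 11225 bp from the nearest start. Its ranks were 57.2, 53.2 and 59.99 untreated and 74.3, 72.7 and 76.7 after NaPr (17.8 ± 3.78, SE, limma adjusted p = 0.0246). After NaBu it ranked 45.0, 48.1 and 32.9, with no listed peak in the untreated libraries. EPN2, an endocytic adaptor gene, was the reverse case, with no listed peak in untreated cells of the NaPr experiment and 42.3, 49.9 and 27.9 after NaPr. In the NaBu experiment EPN2 ranked 28.6, 30.4 and 43.2 untreated and 53.3, 57.4 and 49.2 treated (19.2 ± 5.70, SE, limma adjusted p = 0.0321).

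Among shared losses, KCNF1, NAT14 and AMOTL2 stood at promoters. KCNF1, a potassium channel subunit gene (chr2:10911123-10912309), ranked 79.0, 75.9 and 76.7 untreated and 63.9, 63.5 and 66.0 after NaPr (fell by 12.7 ± 2.79, SE, limma adjusted p = 0.027). In the NaBu experiment it ranked 75.3, 77.1 and 78.1 untreated and 36.7, 36.7 and 45.7 treated (fell by 37.1 ± 3.94, SE, limma adjusted p = 0.000722). The untreated libraries of the experiments were close to each other at this promoter, and both treated groups lay below all of them. NAT14 ranked 74.0, 73.4 and 76.5 untreated and 63.2, 60.03 and 58.9 after NaPr (limma adjusted p = 0.0346), and 79.9, 79.5 and 82.1 untreated and 55.1, 57.2 and 59.6 after NaBu (limma adjusted p = 0.000721). AMOTL2 ranked 86.7, 85.7 and 87.2 untreated and 77.7, 73.8 and 68.0 after NaBu (fell by 13.4 ± 2.38, SE, limma adjusted p = 0.00459).

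**Figure D3:**
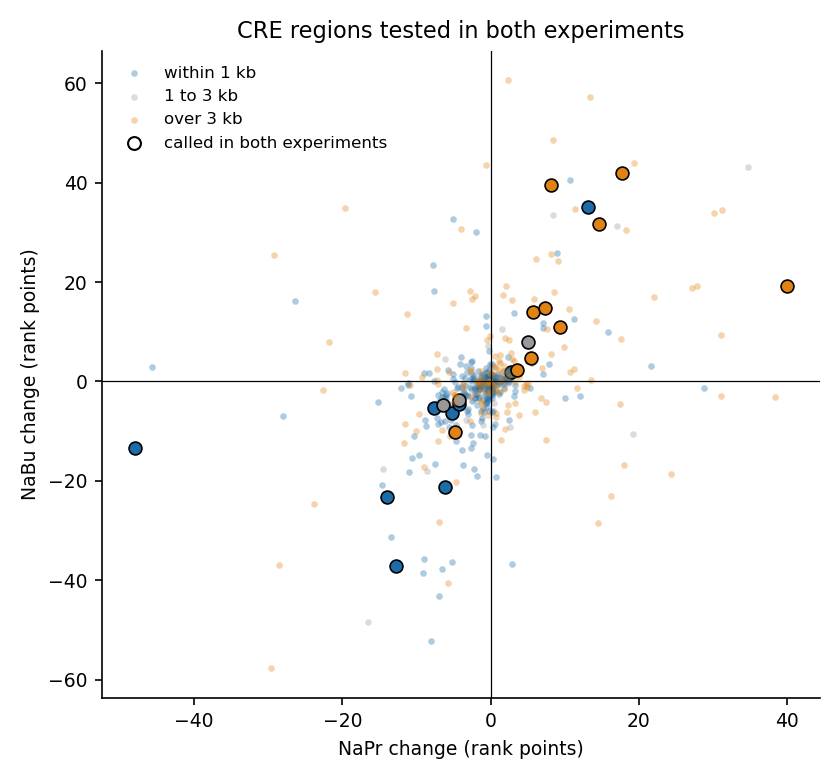
Change in percentile rank (rank points, treated minus untreated) after NaPr (x axis) and NaBu (y axis) at the 496 CRE regions tested in both experiments, coloured by distance from a protein-coding start. Outlined points are the 22 called in both, of which 12 lie above 0 on both axes and 10 below 0 on both.

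The genes of the pathway were read at their promoters, from lists of 28 CREB and ATF family members and their AP-1 relatives, 5 coactivators, 41 genes of cAMP signalling and 42 known CREB targets. After NaPr, 1 of 48 tested regions of the CREB and ATF list was called higher and 3 lower, 0 of 8 coactivator regions higher and 1 lower, 2 of 92 cAMP signalling regions higher and 11 lower, and 0 of 71 CREB target regions higher and 6 lower, beside 2.19% and 8.14% of all regions within 1 kb. After NaBu these counts were 4 and 7 of 61, 0 and 3 of 9, 12 and 30 of 94, and 7 and 27 of 86, beside 9.81% called higher and 26.7% called lower of all regions within 1 kb. Regions called lower after NaBu included those of the coactivator genes CREBBP and EP300, of 5 adenylyl cyclase genes (ADCY3, ADCY5, ADCY6, ADCY7 and ADCY9) and of the target CCND1, the cyclin D1 gene. Regions called higher included those of the phosphodiesterase genes PDE3A, PDE4C and PDE10A, of CREB3L1 and CREB3L3 and of the target PENK, the proenkephalin gene. Several genes, among them AKAP1, GNAI1, GNAI2, PDE4A, RAPGEF3, NR4A1 and BDNF, had regions in both directions.

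A full CRE was found at the promoters of 13 of these genes, with none among the coactivators. After NaPr, 11 were tested and limma called none, with DUSP1 and SIK1 lower at an unadjusted p below 0.05. PER2 also ranked lower after NaPr, but it passed the filter only through its untreated libraries, so no test is given for it. After NaBu all 13 were tested and 4 were called, each lower, at JUND, DUSP1, PCK1 and SIK1, of which SIK1 passed the filter only through its untreated libraries. Over all regions within 1 kb, 26.7% were called lower and 9.81% higher after NaBu, and 8.14% and 2.19% after NaPr. Whether the 13 differ from these shares was not tested.

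JUND, an AP-1 subunit that also pairs with ATF proteins, ranked 75.8, 74.3 and 77.9 untreated and 60.8, 58.7 and 51.0 after NaBu, a fall of 19.2 ± 3.33 (SE, limma adjusted p = 0.00417). In the NaPr experiment its groups overlapped at a higher level (90.9, 95.5 and 94.0 against 94.7, 93.8 and 94.0). The difference between the NaBu and NaPr changes, on ranks among all 167303 regions, passed its own test (−14.7 ± 2.40, SE, limma adjusted p = 0.00175). PCK1, the gluconeogenic enzyme whose promoter is a classical CREB target, ranked 79.2, 79.3 and 78.2 untreated and 65.2, 68.9 and 67.9 after NaBu (fell by 11.6 ± 1.97, SE, limma adjusted p = 0.00383), and it had no peak in any library of the NaPr experiment. DUSP1, a phosphatase that inactivates MAP kinases, ranked 94.3, 94.0 and 94.3 untreated and 92.1, 88.8 and 91.8 after NaBu (fell by 3.30 ± 0.910, SE, limma adjusted p = 0.0245). After NaPr DUSP1 ranked 86.2, 88.7 and 91.8 against 91.4, 93.2 and 93.3, with 1 treated library above the lowest untreated one and no call.

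SIK1, a salt-inducible kinase induced by CREB that restrains it through CRTC proteins, ranked 53.5, 43.8 and 52.9 untreated and 36.7, 0 and 0 after NaBu. This value is uncertain, because the reference holds an exact copy of the promoter. The 1001 bases around the SIK1 summit recur in full at chr21:6110673-6112327, beside a gene that GENCODE marks as an artifactual duplication of SIK1, and that copy was itself a member, ranking 45.5, 41.6 and 34.9 untreated and 0 in each NaBu library. Reads of the promoter cannot be told apart between these loci, so the regions are not independent.

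The CRE regions of the other 9 list genes were not called after either compound, although other regions near the starts of NR4A2, GEM, PPARGC1A and PDE4A were called after NaBu. NR4A2, an orphan nuclear receptor gene, ranked 96.7, 98.5 and 97.5 untreated and 98.1, 97.5 and 97.3 after NaBu. CCNA2, the cyclin A2 gene, ranked 92.6, 91.6 and 90.7 untreated and 91.3, 92.8 and 92.1 after NaBu. In both, the groups overlapped and the region ranked high in every library of the experiment, although the number of tags relative to the median region was called lower at NR4A2 (−0.27 on the log2 scale, limma adjusted p = 0.00569) and CCNA2 (−0.31, limma adjusted p = 0.00996). PER2, a clock gene, ranked 64.5, 55.0 and 58.6 untreated and 41.3, 0 and 0 after NaPr, and 84.7, 83.2 and 86.8 untreated and 87.1, 87.4 and 89.2 after NaBu with a limma adjusted p of 0.0907.

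PRKAR1A, the regulatory subunit of protein kinase A, held ranks of 94.6 to 97.5 in the NaPr experiment and 92.6 to 96.5 in the NaBu experiment with overlapping groups. PDE4A and PDE7A encode phosphodiesterases that degrade cAMP, with NaBu changes of 1.91 ± 0.918 and 0.679 ± 0.707 (SE). PPARGC1A, a coactivator of energy metabolism, changed by 9.99 ± 5.67 after NaPr and by −3.31 ± 1.80 after NaBu (SE). GEM, a small GTPase, changed by −7.14 ± 4.30 and −2.74 ± 1.63 (SE), and FOSB, an AP-1 subunit tested after NaBu alone, by −3.70 ± 3.62 (SE).

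**Figure D4:**
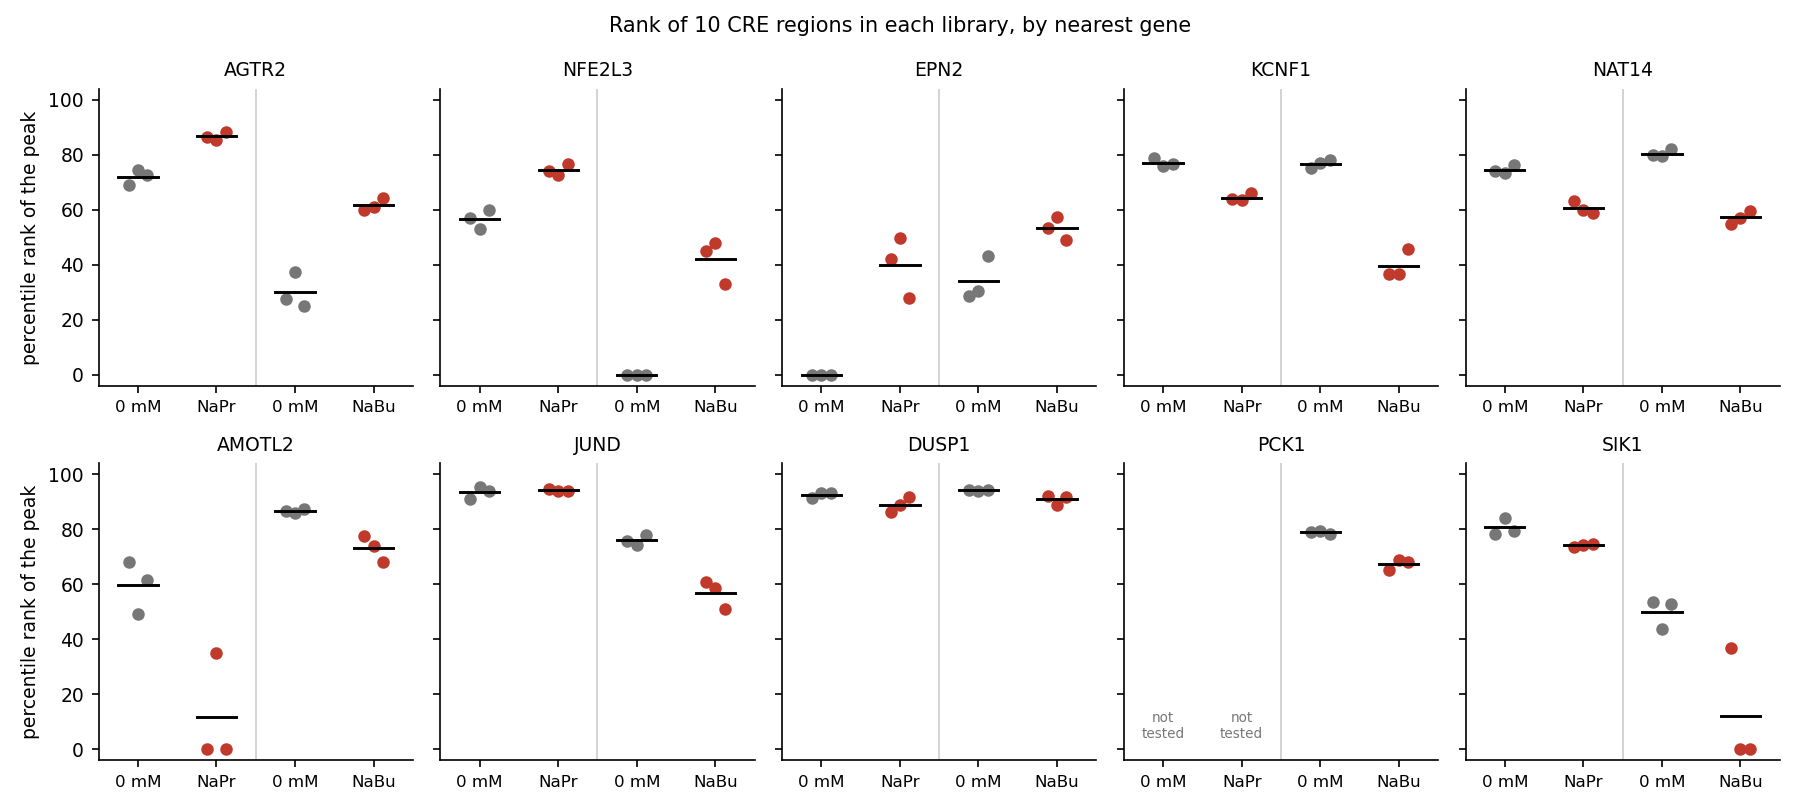
Percentile rank of the peak in each library (100 is the strongest region of that library, 0 no listed peak) at 10 CRE regions named by the nearest gene. Grey points are untreated libraries (0 mM) and red points treated ones, with the NaPr experiment left and the NaBu experiment right of the line in each panel, and bars are means of 3. AGTR2, NFE2L3 and EPN2 were higher and KCNF1, NAT14 and AMOTL2 lower after both compounds, and JUND was called lower after NaBu and not after NaPr.

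The NaBu and NaPr changes were compared directly over all 12 libraries with limma, on ranks among all 167303 regions. Of the 650 CRE regions, 25 had a higher NaBu change and 18 a lower one, while over all regions 5.63% and 5.47% did. At promoters 9 were higher and 8 lower (beside 3.96% and 6.77% of all regions of the class), between 1 and 3 kb limma called none (3 higher and 5 lower at an unadjusted p below 0.05, beside 6.14% and 7.14%), and at distal regions 16 were higher and 10 lower (beside 5.93% and 5.00%). The most positive differences were near ATP2B1 (74.0 rank points), UBE2E1 (61.4) and RBBP7 (60.5), all distal. UBE2E1, a ubiquitin-conjugating enzyme gene 136147 bp away, had a CRE region with no listed peak except in the NaBu libraries, where it ranked 56.3, 44.8 and 42.5. The most negative differences were near BCOR (−69.3 rank points), PTPA (−63.7) and AFF4 (−58.1). Of these 6, all but RBBP7 lacked a listed peak throughout the experiment of the other compound. Every rank there is 0 and adds nothing to the spread. Those 5 had a peak in only 1 of the 4 groups and were members through it, so no test is given for them. RBBP7 passed the filter of the NaBu experiment only through its NaBu libraries, and no test is given for it either.

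Calls at promoters were counted by position of the element, beside 9.81% higher and 26.7% lower of all regions within 1 kb after NaBu. With the element in the 50 bp before the start, 29 of 127 tested were called lower and 5 higher, and in the next 50 bp upstream 23 of 90 were lower and 5 higher. Farther upstream 6 of 57 were lower and 2 higher, and downstream of the start 7 of 36 were lower and 2 higher. After NaPr 12 of 129, 4 of 90, 3 of 53 and 2 of 36 were lower in the same order, beside 8.14%. Of the 10 regions with 2 copies of the element, 1 was called, JARID2, a Polycomb-associated gene singled out after its values were seen (NaPr fell by 10.5 rank points, limma adjusted p = 0.0451, and NaBu limma adjusted p = 0.0578).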

How the data were processed

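Omni-ATAC libraries of SW480 cells were trimmed by the authors with cutadapt 1.9.1, aligned to GRCh38 with Bowtie2 2.3.1 and called per library with MACS2 2.1.0, options not given in the sources used here. The deposited peak lists gave each summit's fold enrichment over local background (a ratio) and its −log10 p and −log10 q. Lists, not reads, were used, so a region without a listed peak may hold signal below the list's limit, and a read-count test was not run. The 8 libraries of mouse CT26 cells were not used.

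Intervals overlapping by 1 bp or more were merged across the 12 libraries. Starts were those of protein-coding transcripts in GENCODE 44, and motifs were searched on both strands of GRCh38 in 201 bp windows (pysam 0.24.0, Python 3.11.15). Percentile ranks were fitted with limma 3.58.1 in R 4.3.3 (two-sided, trended variance), without a replicate block, after tests on simulated data. In that simulation, of 18735 NaPr regions shifted by 0.25 in log10 of the −log10 p, 0.149% were recovered, against 17.5% of 18480 for NaBu. It gave all regions of an experiment the same spread, unlike the data.

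The members and gene lists were chosen with earlier results of these data known. Regions named were the 4 called with the largest gain and the 4 with the largest loss per compound and distance class, those at promoters of list genes, the 3 largest gains and 3 largest losses called alike after both compounds, and the 3 most positive and 3 most negative differences. Alternatives changed the ranked value, ties, GC bins, list length, q threshold, filter, merging overlap, scale, block and libraries. The count called alike after both compounds was added after seeing the data. Some items covered by these rules are not reported here.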

Additional observations from a re-analysis of the deposited data

Results flagged for a closer look

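Limma's test of the difference between the NaBu and NaPr changes called 14 of the named CRE regions. ATP2B1, UBE2E1, RBBP7, BCOR, PTPA and AFF4 met the naming rule on the largest called differences, so that rule fixed their being called. Each difference is the NaBu change minus the NaPr change in rank points, on ranks among all 167303 regions. The changes given above use ranks among the regions tested in each experiment, so subtracting them does not give these values. At UBE2E1, with no peak in the NaPr experiment, the NaBu change was 47.9 on that narrower ranking and the difference 61.4. It was positive at ATP2B1 (74.0), UBE2E1 (61.4), RBBP7 (60.5), RAPSN (54.0), NFE2L3 (43.9), ODF3L1 (23.1) and AGTR2 (12.8). It was negative at BCOR (−69.3), PTPA (−63.7), AFF4 (−58.1), the copy of the SIK1 promoter nearest to TPTE (−51.9), EPN2 (−40.9), KCNF1 (−18.1) and JUND (−14.7). ATP2B1, UBE2E1, RAPSN, BCOR, PTPA and AFF4 had a peak in only 1 of the 4 groups and became members through it, so their tests do not stand apart from the choice of regions. NFE2L3, EPN2 and the SIK1 copy each had a group without a listed peak, which adds nothing to the spread. RBBP7 passed the filter of the NaBu experiment only through its NaBu libraries. With the 50000 strongest intervals the difference turned over at NFE2L3 (−54.2), AGTR2 (−14.2) and the SIK1 copy (10.2). RAPSN ranked lower after NaPr and had no peak in the NaBu experiment, so its positive difference is not a gain after NaBu. At NFE2L3, AGTR2, EPN2 and KCNF1 both changes had the same sign and differed in size, and where an untreated group had no listed peak the size of the change is set by the treated rank alone. Compound, dose and date cannot be told apart in these differences.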

How the results depend on the processing

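Counts of CRE regions called changed with the processing as follows. With fold enrichment ranked in place of −log10 p, 0 promoter CREs were higher, 3 were lower and 3 distal CREs were higher after NaPr. The shares of all regions in these classes were 0.598%, 1.32% and 2.43%. After NaBu there were 37 higher and 26 lower promoter CREs and 30 higher distal CREs, and 1 region was called alike after both. Ranks within GC bins gave 2 lower promoter CREs and 6 lower distal CREs after NaPr, beside 2.83% and 2.95% of all regions in these classes. They gave 23 higher and 35 lower promoter CREs after NaBu, and 5 alike. With the 50000 strongest intervals, NaPr gave 5 higher promoter CREs and 7 lower distal ones, and NaBu 29 higher and 19 lower distal ones. With tied ranks, 2 distal CREs were lower after NaPr, beside 3.32% of all regions over 3 kb. Tags over background gave 5 higher and 0 lower promoter CREs and 0 lower distal CREs after NaPr, 166 lower promoter and 49 lower distal CREs after NaBu, 3 higher and 39 lower differences, and 11 alike. Tags over the median gave 121 lower promoter CREs and 20 higher and 21 lower distal CREs after NaPr, 163 lower promoter and 49 lower distal CREs after NaBu, 16 higher and 43 lower differences, and 126 alike. The tag settings test only regions with a peak in every library of the comparison. These were 294 promoter and 137 distal CREs for NaPr and 288 and 169 for NaBu. Over all regions so tested, tags over background moved the NaPr median by 0.205 on the log2 scale. Here and below, counts without a share of all regions beside them do not show a response particular to CREs. The cause of the other changes was not tested.

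Leaving out each library in turn gave, after NaPr, 0 higher and 0 to 5 lower promoter CREs and 0 to 7 higher and 0 to 1 lower distal CREs. After NaBu it gave 11 to 21 higher and 39 to 77 lower promoter CREs and 41 to 51 higher and 20 to 27 lower distal CREs. The difference gave 25 to 32 higher and 18 to 47 lower, with 47 without NaBu replicate 1, and the number alike was 0 to 23.

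The labels did not say whether replicate numbers pair the libraries. Correlations of deviations were 0.00709 to 0.0463 for libraries with the same number and −0.0337 to 0.0191 for the others. These values do not settle whether the libraries were paired. With a replicate block, NaPr gave 0 higher and 0 lower promoter CREs, 2 higher and 0 lower distal CREs, and 2 alike. With the block and GC bins together, NaPr gave 0 in each class and direction, NaBu 26 lower promoter CREs, the difference 15 higher, and 0 were alike.

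Directions reversed for NR4A2 after NaBu (−0.28 with tags over background, −0.27 over the median), CCNA2 after NaBu (−0.32 and −0.31), VASP after NaBu (−0.038 and −0.034) and after NaPr (−0.029 over the median), and PRKAR1A after NaPr (−0.27 over the median), all log2. The difference reversed with the 50000 strongest intervals at NFE2L3 (−54.2), IPO5 (39.995), TPTE (10.2) and AGTR2 (−14.2 rank points), and at AGTR2 with tags over background (−0.039, log2). Of the named regions called, ranking by fold enrichment kept 3 of 14 after NaPr, 22 of 29 after NaBu and 11 of 14 differences. The 50 bp merge was not run for the count called alike.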
